A study of Mus musculus with 8 samples.

Results

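Immune checkpoint ligands are proteins that a cell presents to lymphocytes or macrophages to restrain them or, for some members, to stimulate them. The genes examined here were Cd274 and Pdcd1lg2, which encode PD-L1 and PD-L2, the ligands of the receptor PD-1; Cd80 and Cd86, whose products bind the activating receptor CD28 and the inhibitory receptor CTLA-4; Cd276, which encodes B7-H3, a protein of the same family; Nectin2 and Pvr, whose products bind the inhibitory receptor TIGIT and the activating receptor CD226; Cd47, which encodes the signal that macrophages read through SIRPA; and Lgals9, which encodes galectin-9, a ligand of TIM-3. Members were taken by gene name from the deposited table of H3K4me3 peaks, and every peak that the table lists under the name was kept. All 9 genes had a listed peak, so none lacked one. Together they held 22 of 35486 listed peaks and 9 of the 20871 gene names in the table. H3K4me3, trimethylation of lysine 4 of histone H3, lies mainly at the start sites of genes that are active or poised, and its level at a start site is not a measure of the protein on the cell surface.

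H3K4me3 was measured by an assay that the methods name CUT&Tag. They describe an enzyme that cuts DNA (MNase), tethered to the antibody, which releases the DNA beside the mark. The cells were CD45-CD31-EpCAM+ tumor cells sorted from lung tumors of mice with the alleles Lkb1fl/fl (KL, replicates 1 and 2) or Lkb1fl/fl and Gpx4m/m (KLG4m/m, replicates 3 and 4), among others that both groups shared. Both groups were given Ad-Cre into the nose and tamoxifen, and the tumors were taken 10 weeks after Ad-Cre, with 1000000 cells per mouse. In both, Cre deletes Lkb1 in the infected lung cells. The Gpx4m allele carries a DreERT2 recombinase behind a STOP cassette and a CAG promoter, so that Gpx4, a glutathione peroxidase that removes lipid peroxides, is lost only in cells that met Cre and after tamoxifen. The sources differ on the number of mice behind these libraries, and the p-values measure only the spread between these libraries. The libraries held 3244495 to 3463731 reads in listed peaks. Gpx4 had 1 listed peak, at its start site, and its counts were 242 and 236 in KL against 304 and 301 in KLG4m/m (log2 fold change 0.40, adjusted p = 0.0085, edgeR). The deletion spares this region, so the peak does not test it.

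The promoter sequences differed widely in their density of CpG dinucleotides, a feature tied in general to broad and steady H3K4me3. RefSeq (GRCm38.p6) windows were matched by symbol for 7 of the 9 genes, and the 250 bases before the start site are printed 5′ to 3′ on the strand of the gene. Cd80, Cd274, Cd276, Cd47 and Lgals9 are shown because a listed peak lay within 1 kb of a start site, and Pdcd1lg2 and Nectin2 because a peak of theirs passed the test. Capitals mark each match to the motifs searched on both strands: GAS (TTCNNNGAA), the ISRE core, NF-kB, AP-1 (TGANTCA), the GC box (GGGCGG) and the E box (CACGTG). Where a match lies on the other strand, the printed letters are its reverse complement.
Cd274: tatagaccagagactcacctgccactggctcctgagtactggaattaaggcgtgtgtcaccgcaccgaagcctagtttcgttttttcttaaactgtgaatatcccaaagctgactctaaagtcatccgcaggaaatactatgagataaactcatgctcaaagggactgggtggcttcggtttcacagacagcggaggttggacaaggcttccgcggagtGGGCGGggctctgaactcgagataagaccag
Pdcd1lg2: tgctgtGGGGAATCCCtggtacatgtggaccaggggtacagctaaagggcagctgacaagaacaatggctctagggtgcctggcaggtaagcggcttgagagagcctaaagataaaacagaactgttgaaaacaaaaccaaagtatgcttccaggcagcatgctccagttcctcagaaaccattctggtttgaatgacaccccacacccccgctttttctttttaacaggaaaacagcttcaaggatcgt
Cd80: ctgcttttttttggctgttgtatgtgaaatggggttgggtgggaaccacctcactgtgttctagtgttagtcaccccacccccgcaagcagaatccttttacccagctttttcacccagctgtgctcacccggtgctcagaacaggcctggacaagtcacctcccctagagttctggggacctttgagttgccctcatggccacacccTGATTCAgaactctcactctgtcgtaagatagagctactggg
Cd276: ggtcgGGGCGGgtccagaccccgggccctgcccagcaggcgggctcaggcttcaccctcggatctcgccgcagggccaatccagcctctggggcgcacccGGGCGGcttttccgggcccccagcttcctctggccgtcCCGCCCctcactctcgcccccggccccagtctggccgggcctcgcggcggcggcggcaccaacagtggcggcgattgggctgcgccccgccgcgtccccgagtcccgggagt
Nectin2: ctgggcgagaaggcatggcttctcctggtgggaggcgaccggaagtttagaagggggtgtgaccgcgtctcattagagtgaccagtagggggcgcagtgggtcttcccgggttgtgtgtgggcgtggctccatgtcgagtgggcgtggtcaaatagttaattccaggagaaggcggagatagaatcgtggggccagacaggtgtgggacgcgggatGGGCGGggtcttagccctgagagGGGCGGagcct
Cd47: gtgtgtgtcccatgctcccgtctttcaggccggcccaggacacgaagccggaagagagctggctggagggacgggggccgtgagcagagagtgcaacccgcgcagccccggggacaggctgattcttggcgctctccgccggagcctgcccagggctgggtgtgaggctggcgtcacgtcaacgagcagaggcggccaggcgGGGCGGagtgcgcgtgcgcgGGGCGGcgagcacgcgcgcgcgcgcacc
Lgals9: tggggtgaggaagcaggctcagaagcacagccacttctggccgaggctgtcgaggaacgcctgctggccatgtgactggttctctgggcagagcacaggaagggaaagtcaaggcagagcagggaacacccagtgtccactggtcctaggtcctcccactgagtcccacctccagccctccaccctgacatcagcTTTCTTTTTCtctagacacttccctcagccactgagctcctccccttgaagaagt
The windows lie at chr19:29367188-29367437 on the plus strand (Cd274), chr19:29410669-29410918 on the plus strand (Pdcd1lg2), chr16:38458683-38458932 on the plus strand (Cd80), chr9:58555034-58555283 on the minus strand (Cd276), chr7:19749574-19749823 on the minus strand (Nectin2), chr16:49855404-49855653 on the plus strand (Cd47) and chr11:78984925-78985174 on the minus strand (Lgals9). For Cd274, Cd47 and Cd80 the start site is not the outermost of the gene but lies 5331, 4326 and 1503 bp inside it.

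Cd47 and Cd276 held 30 and 29 CpGs, Nectin2 16 and Cd274 11, whereas Pdcd1lg2, Cd80 and Lgals9 held 3 each. The median over all 32851 windows was 6. The 4 windows with more CpGs than the median were the ones with a GC box, a binding sequence of SP1 and its relatives: 1 in Cd274 (first base 31 bases before the start site), 2 in Nectin2 (34 and 11 bases), 2 in Cd47 (48 and 28 bases) and 3 in Cd276 (245, 150 and 112 bases). The 3 CpG-poor windows held none. Instead Pdcd1lg2 held an NF-kB match 244 bases before the start site, Cd80 an AP-1 match at 42 bases and Lgals9 an ISRE core, the sequence read by interferon-regulated factors, at 55 bases. No GAS or E box lay in any of the 7 windows. Of all windows of this length, 32.7% held a GC box, 7.02% a GAS, 6.75% an AP-1 match, 6.02% an E box, 3.90% an NF-kB match and 2.98% an ISRE core.

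Among the start-site peaks, H3K4me3 in KL ranged from 14.7 CPM at Cd86 to 98.6 CPM at Cd274. Levels are given as counts per 1000000 reads in listed peaks, scaled by TMM (CPM), as mean ± SD over 2 libraries; all listed peaks but 1 in the table were 400 bp long, so CPM can be compared between peaks. The highest start-site peaks were those of Cd274 (98.6 ± 7.44 in KL), Lgals9 (90.7 ± 2.12) and Cd47 (80.6 ± 12.7), followed by a further Cd274 start site (66.1 ± 3.52). Cd276 (33.2 ± 1.05), Cd80 (16.4 ± 1.64) and Cd86 (14.7 ± 2.84) came after. The first Cd274 peak (104 and 93.3 CPM in KL, 102 and 92.9 CPM in KLG4m/m) and that of Lgals9 (89.2 and 92.2 CPM, 100.3 and 100.01 CPM) did not differ beyond the spread of the libraries over both genotypes. Cd80 (15.2 and 17.6 CPM in KL) overlapped Cd86 (16.7 and 12.7 CPM). Among the peaks within 1 kb of a start site, the first Cd274 peak stood at percentile 93.3 and that of Lgals9 at percentile 92.3, while those of Cd276, Cd80 and Cd86 stood at percentiles 39.6, 28.6 and 25.8. Lgals9 thus had one of the highest peaks of the group beside one of the CpG-poorest windows. For Pdcd1lg2, Nectin2 and Pvr the table listed no peak within 1 kb of a start site under their own name.

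**Figure D1:**
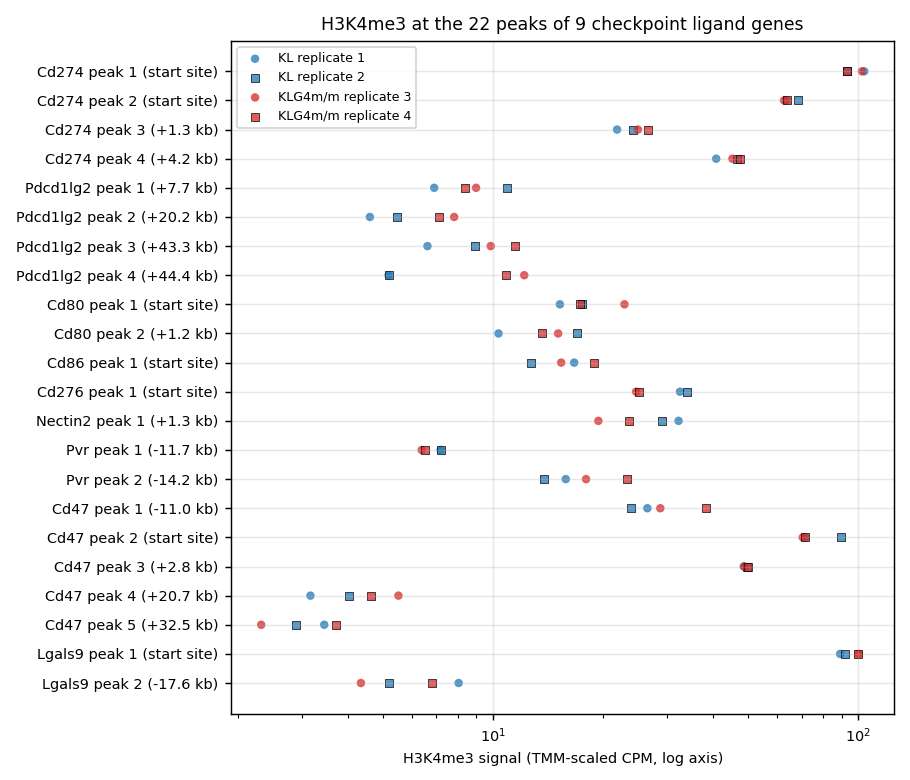
TMM-scaled CPM (log axis) of each of the 22 peaks in the 4 libraries, KL in blue and KLG4m/m in red, with the distance to the start site given by the table. The start-site peaks of Cd274, Cd47 and Lgals9 sit far above all peaks of Pdcd1lg2, and the libraries of both genotypes lie close together at most peaks.

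Between the genotypes, 1 of the 22 peaks rose in KLG4m/m and 1 fell at an adjusted p under 0.05 (edgeR's quasi-likelihood test, Benjamini-Hochberg over all peaks), where 3.1% of all listed peaks rose and 5.52% fell. The peak that rose was in the last intron of Pdcd1lg2 and the peak that fell lay just inside Nectin2. The groups did not overlap at 8 peaks with KLG4m/m higher and at 4 with KLG4m/m lower, against 27.5% and 26.6% of all peaks. The median log2 fold change was 0.076 over the 22 peaks and 0.0077 over all peaks. None of the 7 peaks within 1 kb of a start site passed the test, where 2.89% of all such peaks rose and 8.43% fell; 1 of the 7 had an unadjusted p under 0.05, and DESeq2 also called none. With upper-quartile scaling the table-wide split turned from 1099 higher and 1960 lower to 2122 higher and 1719 lower, and the member count from 1 higher and 1 lower to 2 higher and 0 lower.

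The PD-1 ligand genes lie side by side on chromosome 19. Of their 8 peaks, 1 of Pdcd1lg2 rose and none of Cd274 passed the test; whether the genes differ from each other was not tested. Cd274 had 4 listed peaks. The first (chr19:29339097-29339497 in the deposited table) covers the start site of a predicted transcript and had 361 and 324 reads in KL and 353 and 300 reads in KLG4m/m. The ranges of the genotypes overlapped almost wholly, with a log2 fold change of -0.012 (95% interval -0.20 to 0.17). The second (chr19:29344555-29344955), at the start site of the curated transcript whose upstream window is printed above, had 221 and 238 reads in KL and 216 and 206 in KLG4m/m, a log2 fold change of -0.06 (-0.28 to 0.15). The ranges met, KLG4m/m replicate 4 (63.8 CPM) standing just above KL replicate 1 (63.6 CPM). The third peak, 1.29 kb downstream of a start site, had 76 and 84 reads against 86 and 86, and the fourth, in intron 2, had 142 and 162 against 156 and 153, with log2 fold changes of 0.16 and 0.08. Of the summed Cd274 signal, the first start site carried 42.3% and the second 27.8%. Summed over its 4 peaks, Cd274 had 800 and 808 reads in KL and 811 and 745 in KLG4m/m, a log2 fold change of 0.0071 with an interval of -0.11 to 0.13. This was the most deeply covered gene of the 9 and the one with the narrowest interval.

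Pdcd1lg2, which encodes the second PD-1 ligand and is known mainly from dendritic cells and macrophages, carried weak H3K4me3 inside the gene and no listed peak at its start site. The fourth peak of the gene (chr19:29432686-29433086), in intron 5 of 5 and 44.4 kb from the start site, had 18 and 18 reads in KL and 42 and 35 in KLG4m/m. Both KLG4m/m libraries were above both KL libraries. The level rose from 5.18 ± 0.00461 to 11.5 ± 0.950 CPM (SD, n = 2), a log2 fold change of 1.15 (SE 0.28, adjusted p = 0.0095, edgeR). The peak beside it, 43.3 kb from the start site and annotated to the 3′ UTR, had 23 and 31 reads against 34 and 37. That in intron 2, 20.2 kb in, had 16 and 19 against 27 and 23. At both, the KLG4m/m libraries were again the higher pair, with log2 fold changes of 0.45 (adjusted p = 0.296) and 0.57 (adjusted p = 0.263) that did not pass the test. The first peak, in intron 1 and 7.69 kb in, had 24 and 38 reads against 31 and 27, with overlapping groups and a log2 fold change of -0.04. Summed over its peaks, Pdcd1lg2 rose from 81 and 106 reads to 134 and 122, a log2 fold change of 0.51 (SE 0.15, adjusted p = 0.012, edgeR), in a table where 5.38% of genes rose and 9.63% fell. Its summed value without KL replicate 1 was 0.33 (adjusted p = 0.275), and DESeq2 gave 0.51 (adjusted p = 0.297); without KLG4m/m replicate 3 or 4 the adjusted p was 0.257 and 0.252. Without KLG4m/m replicate 3 or 4 the adjusted p of the fourth peak was 0.307 and 0.337, but under those settings no peak or gene in the whole table passed.

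**Figure D2:**
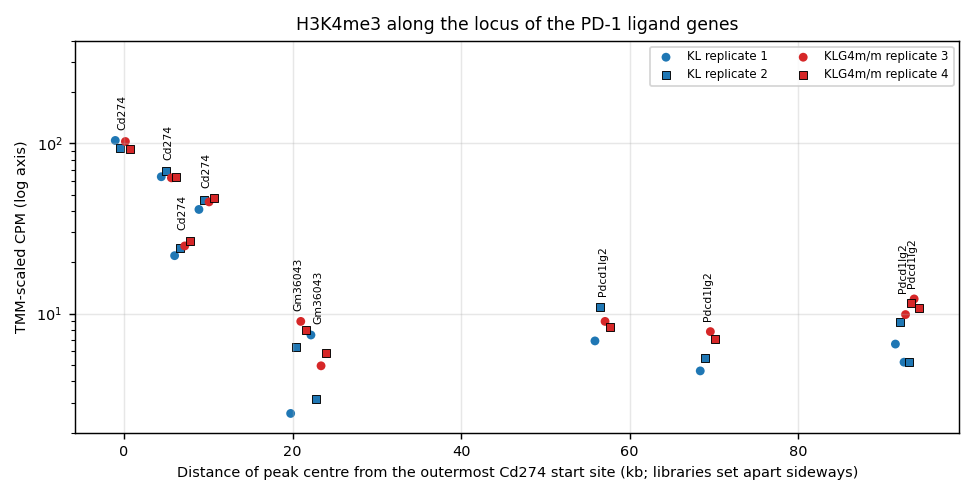
TMM-scaled CPM (log axis) of the peaks along the locus of the PD-1 ligand genes against the distance from the outermost Cd274 start site in kb, with 1 point per library, KL blue and KLG4m/m red. At the peaks listed under Cd274 the genotypes overlap, except at the third (21.9 and 24.2 CPM in KL, 24.9 and 26.6 CPM in KLG4m/m). At the last Pdcd1lg2 peak the KLG4m/m points (12.2 and 10.8 CPM) lie above the KL points (5.18 and 5.18 CPM).

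Whether peaks of 1 gene differ from each other in response was tested directly (edgeR's diffSpliceDGE with peaks in place of exons, over all genes with at least 2 peaks). Of the 19 member peaks in 6 genes, 0 passed, where 1.29% of all such peaks did, and 3 had an unadjusted p under 0.05. By edgeR, these were the Cd47 peak at -10985 bp from the start site (adjusted p = 0.237, 0.0128 before adjustment) and the fourth and first peaks of Pdcd1lg2 (adjusted p = 0.357 and 0.428, 0.0314 and 0.0492 before adjustment). The last-intron peak of Pdcd1lg2 is therefore not shown to differ from its other peaks. No other tool was run for this comparison.

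Cd80 and Cd86, the ligands of CD28 and CTLA-4 that antigen-presenting cells carry, had low start-site peaks that did not pass the test. The Cd80 start-site peak (chr16:38279039-38279439) had 53 and 61 reads in KL and 79 and 56 in KLG4m/m. KLG4m/m replicate 3 was the highest library and replicate 4 lay between the KL libraries, so that the groups overlapped (log2 fold change 0.30, interval -0.10 to 0.70). A further Cd80 peak 1.15 kb downstream had 36 and 59 reads against 52 and 44 (log2 fold change 0.07). The single Cd86 peak (chr16:36486114-36486514) had 58 and 44 reads against 53 and 61, with a log2 fold change of 0.22 and an interval of -0.20 to 0.64. Changes inside these intervals were not detectable at this depth.

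Cd276 and Nectin2 are expressed by many epithelial tumors. Nectin2 fell in KLG4m/m, and Cd276 had fewer reads there without passing the test. The single Cd276 peak listed under its name (chr9:58462203-58462603), at the start site, had 113 and 118 reads in KL and 85 and 81 in KLG4m/m. All KL reads were above all KLG4m/m reads, and the mean went from 33.2 ± 1.05 to 24.9 ± 0.303 CPM, but the log2 fold change of -0.42 (SE 0.15) did not pass the test (adjusted p = 0.0787, edgeR). When peaks with a mean below 10 CPM were left out of the test, it passed at an adjusted p of 0.0497. The single Nectin2 peak (chr7:19481774-19482174), 1.32 kb inside the gene, had 112 and 101 reads in KL and 67 and 76 in KLG4m/m. It fell from 30.7 ± 2.21 to 21.5 ± 2.90 CPM, a log2 fold change of -0.52 (SE 0.16, adjusted p = 0.0452, edgeR), with no overlap between the groups. The adjusted p was 0.0618 with upper-quartile scaling and 0.523 with DESeq2, and 0.0737 to 0.351 when any 1 of the 4 libraries was left out.

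Pvr, which encodes the poliovirus receptor CD155, shares its receptors with Nectin2 and lies on the same chromosome. Under its own name the table listed only peaks upstream of the gene. The peak 14.2 kb upstream (chr7:19669253-19669653) had 55 and 48 reads in KL and 62 and 75 in KLG4m/m, and the one 11.7 kb upstream (chr7:19666789-19667189) had 25 and 25 against 22 and 21. The groups did not overlap at either, but they lay in opposite directions, with log2 fold changes of 0.47 (adjusted p = 0.135) and -0.16 (adjusted p = 0.785), and neither passed the test.

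Listing by the nearest gene name left some peaks on the members under other names. By position, 11 further peaks lay over 6 of the genes or within 1 kb of them, listed mostly under predicted genes; this view was added after the values had been seen. Of these, 1 rose and 2 fell, where 3.1% of all listed peaks rose and 5.52% fell. At the start site of Nectin2, 2 bp before its first base, a peak listed under Gm34744 (chr7:19483500-19483900) had 187 and 194 reads in KL and 135 and 141 in KLG4m/m. At Pvr, 226 bp into the gene, a peak listed under Gm16251 (chr7:19654442-19654842) had 219 and 195 reads in KL and 156 and 130 in KLG4m/m. Both KLG4m/m libraries were lower than both KL libraries at each, and the peaks fell by 0.41 (SE 0.12, adjusted p = 0.0328) and by 0.48 (SE 0.12, adjusted p = 0.0123) on the log2 scale. These are start sites of a pair of genes read in opposite directions, so reads there cannot be assigned to 1 of the genes. The calls were lost with DESeq2 (adjusted p = 0.461 and 0.286). Leaving out KL replicate 1 gave adjusted p values of 0.0776 and 0.120, and leaving out KL replicate 2 gave 0.164 and 0.0132. With either KLG4m/m library left out, they ran from 0.307 to 0.337 over both peaks.

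At Cd276, a peak in exon 3 of 9 listed under Gm53528 (chr9:58444670-58445070), 17.3 kb into the gene, had 21 and 15 reads in KL and 40 and 27 in KLG4m/m. It rose by a log2 fold change of 0.95 (SE 0.30, adjusted p = 0.0472, edgeR), and the groups did not overlap. Peaks lying on a member under other names were then added to those under its own name and compared with each other. This was the only 1 of 32 member peaks to pass. It stood 1.09 on the log2 scale above Cd276 as a whole, which had 2 peaks in this view (adjusted p = 0.0407, edgeR). Of all peaks tested 1.3% passed, with all genes but the members kept by name. Next came the far upstream peak of Pvr, 0.69 above the gene as a whole (adjusted p = 0.0555, edgeR). The Gm53528 call held in 2 of 6 alternatives that kept all libraries and was lost with total reads, where it stood just above the threshold, and in limma at each pseudocount (adjusted p = 0.0538 to 0.0615), as well as without KL replicate 2 (adjusted p = 0.263), and without KLG4m/m replicate 3 or 4 (adjusted p = 0.383 and 0.337). The other 8 peaks under other names did not pass; the nearest was a Gm36043 peak 20.5 kb into Cd274, with 9 and 22 reads against 31 and 26 (log2 fold change 0.93, adjusted p = 0.0883). That value ran from 0.43 to 1.71 with 1 library left out, and it passed without KL replicate 2 (adjusted p = 0.0147) and with upper-quartile factors (adjusted p = 0.0462).

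**Figure D3:**
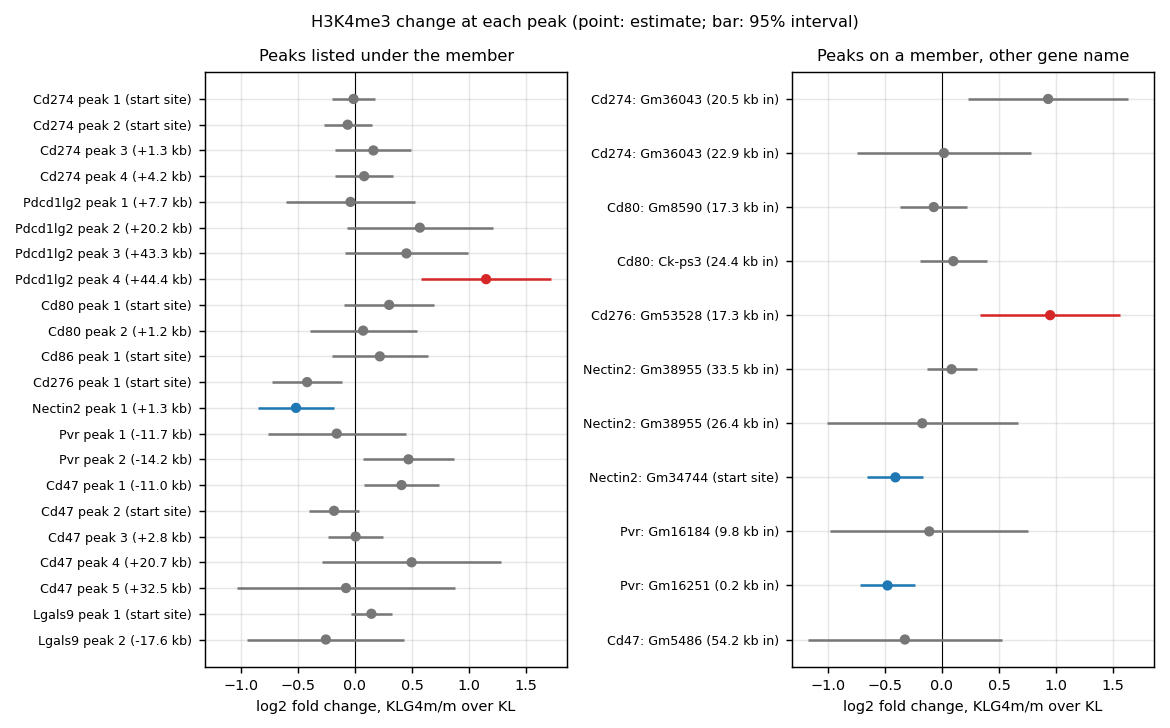
Log2 fold change of KLG4m/m over KL (points) with its 95% interval (bars) for the 22 peaks listed under the member genes (left) and for the 11 peaks on them listed under another gene (right), red where higher and blue where lower at an adjusted p under 0.05. The peaks at the start sites of Nectin2 (-0.41) and Pvr (-0.48) lie to the left of 0, and the exon peak of Cd276 (0.95) and the last-intron peak of Pdcd1lg2 (1.15) to the right.

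How the peaks were assigned changed the summed call for Pvr and Nectin2 and moved the value of Cd276. Pvr had 80 and 73 reads in KL and 84 and 96 in KLG4m/m by name, a log2 fold change of 0.29 (adjusted p = 0.253). By position, which takes in its start site and leaves out the far upstream peaks, it had 232 and 209 against 165 and 145 and fell by 0.45 on the log2 scale (SE 0.12, adjusted p = 0.0031, edgeR). Nectin2 fell by 0.52 by name (adjusted p = 0.0209; 0.0536 to 0.279 with any 1 library left out and 0.373 with DESeq2) and stood at -0.19 by position (adjusted p = 0.0705), because a peak near its 3′ end listed under Gm38955, which held 259 and 224 reads in KL against 233 and 259 in KLG4m/m, was then added. The peak listed under Gm38955 lies past the end of Nectin2, 68 bp from a start site of Gm38955, and entered only through the 1 kb margin. For Cd276 the value went from -0.42 (adjusted p = 0.0529) to -0.14 (adjusted p = 0.544). Cd276 passed in neither view and so kept its side of the threshold, as did the sums of Cd274, Pdcd1lg2, Cd80, Cd86, Cd47 and Lgals9. The sums by position were fitted on all 4 libraries only. By name 1 of the 9 genes rose (Pdcd1lg2) and 1 fell (Nectin2), and by position 1 rose (Pdcd1lg2) and 1 fell (Pvr). Most Pvr reads by position, 219 and 195 in KL and 156 and 130 in KLG4m/m, came from the start-site peak listed under Gm16251. As said above, reads there cannot be assigned to 1 of the genes. Of all genes by name, 5.38% rose and 9.63% fell.

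**Figure D4:**
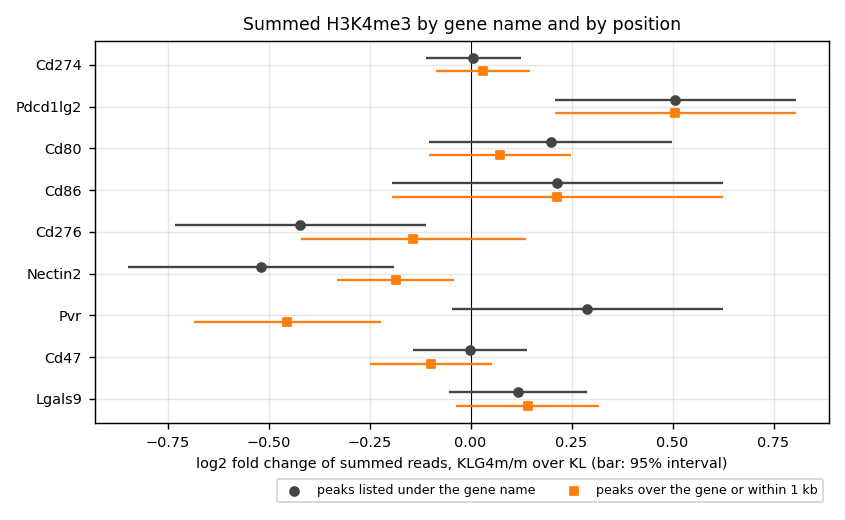
Log2 fold change of summed reads, KLG4m/m over KL, with its 95% interval for each of the 9 genes, by the peaks listed under the gene name (grey circles) and by the peaks lying over the gene or within 1 kb of it (orange squares). Pvr changes from 0.29 to -0.45, while Pdcd1lg2 stays at 0.51.

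Cd47, the signal that restrains phagocytosis, and Lgals9 kept strong start-site peaks in both genotypes. The Cd47 start-site peak (chr16:49675599-49675999) had 249 and 311 reads in KL and 243 and 231 in KLG4m/m. KL replicate 2 stood above the other 3 libraries, and the log2 fold change was -0.18 (interval -0.40 to 0.03). A peak 2.83 kb downstream had 169 and 172 reads against 168 and 161, with a log2 fold change of 0.0056. The peak at -10985 bp from the start site (chr16:49660306-49660706), inside an intron of the predicted gene Gm4633, had 92 and 83 reads against 99 and 124, all KLG4m/m reads above all KL reads (log2 fold change 0.41, adjusted p = 0.114). The 2 remaining Cd47 peaks, in introns 3 and 4, had 8 to 19 reads per library. Summed, Cd47 had 533 and 590 reads in KL and 537 and 543 in KLG4m/m, with an interval of -0.14 to 0.14 around a log2 fold change of -0.0012.

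The Lgals9 start-site peak (chr11:78875451-78875851) had 310 and 320 reads in KL and 346 and 323 in KLG4m/m. The groups did not overlap, but the KLG4m/m libraries were only 1.10 times as high on average (log2 fold change 0.14, interval -0.03 to 0.32, adjusted p = 0.317). A distal peak 17.6 kb upstream had 28 and 18 reads against 15 and 22, with overlapping groups. It carried 6.01% of the signal of the gene.

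Of 74 peaks of other genes within 100 kb of the member peaks, 3 rose and 2 fell, shares near those of all listed peaks (3.1% and 5.52%). The groups did not overlap at 23 that were higher and 12 that were lower, where 27.5% and 26.6% of all peaks were so. Beside the Gm53528, Gm34744 and Gm16251 peaks described above, these were a peak of Apoe, the lipid transport protein encoded near Nectin2, which held 42 and 32 reads in KL against 75 and 82 in KLG4m/m (log2 fold change 1.14, adjusted p = 0.00075), and a peak of Ildr1 near Cd86, with 29 and 29 against 45 and 55 (log2 fold change 0.84, adjusted p = 0.0257). The Apoe peak passed without KL replicate 1 and without KL replicate 2 but not with DESeq2 (adjusted p = 0.0513), and the Ildr1 peak was lost without KL replicate 1 or 2 (adjusted p = 0.0724 and 0.0872) and with DESeq2 (adjusted p = 0.441).

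The receptors of these ligands belong to lymphocytes and macrophages, and all 13 receptor genes had listed peaks in the sorted cells. None rose and 1 fell, a share near that of all genes (5.38% rose and 9.63% fell). This was Cd160, a receptor of T cells and NK cells, which went from 56 and 60 reads to 33 and 28 (log2 fold change -0.87, adjusted p = 0.0043; without KL replicate 2 -0.81, adjusted p = 0.0545). Pdcd1, which encodes PD-1, had 49 and 68 reads against 60 and 61, and Sirpa, the receptor of CD47 on macrophages, had 376 and 379 against 396 and 441 (log2 fold change 0.20, adjusted p = 0.0790). The median log2 fold change of the receptors was -0.0026, where that of all genes was 0.0023.

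Other ligands of T cells moved in both directions. Of 20 genes, 16 had listed peaks (Cd70, Lgals1, Nectin1 and Tnfsf18 did not), of which 4 rose and 3 fell, where 5.38% of all genes rose and 9.63% fell, and the median log2 fold change was 0.14. Vsir, which encodes the inhibitory protein VISTA, had 559 and 574 reads in KL and 723 and 687 in KLG4m/m, a log2 fold change of 0.37 (adjusted p = 9.8e-06; 0.26 and 0.0686 on its highest peak alone). Icosl, the ligand of ICOS, had 313 and 304 against 366 and 360 (0.29, adjusted p = 0.0140). Tnfsf4, which encodes OX40 ligand, had 16 and 34 against 49 and 43 (0.93, adjusted p = 0.0078), and without KL replicate 1 or 2 the value was 0.49 (adjusted p = 0.306) or 1.58. Vtcn1, which encodes the B7 family member B7-H4, had 7 and 2 reads against 17 and 17 (1.94, adjusted p = 0.0044), few enough that counting error is a large part of the value; without KL replicate 2 it was 1.33 (adjusted p = 0.159), without KL replicate 1 it was 3.07. Those that fell were Fgl1, a ligand of LAG-3 (64 and 47 against 40 and 22 reads, log2 fold change -0.78), Cd200, which restrains myeloid cells (216 and 223 against 160 and 143, -0.48), and Hmgb1, a chromatin protein that also binds TIM-3 (345 and 352 against 260 and 255, -0.38). With adjusted p values of 0.0145, 0.0017 and 0.0015, each fell without overlap between the groups. Without KL replicate 1, Fgl1 stood at -0.54 (adjusted p = 0.258), and Icosl did not pass without KL replicate 1 or 2 (adjusted p = 0.0556 and 0.117).

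Genes that control the ligands, chiefly the interferon-gamma pathway that induces Cd274, had 17 of 18 members listed (Qpctl was not). Of these 3 rose and 1 fell, where 5.38% of all genes rose and 9.63% fell, with a median log2 fold change of 0.12. Ifngr1, a chain of the interferon-gamma receptor, had 567 and 497 reads in KL and 655 and 591 in KLG4m/m (0.28, adjusted p = 0.0019). Irf1, the transcription factor that carries the interferon signal to the Cd274 promoter, had 395 and 391 against 446 and 446 (0.24, adjusted p = 0.0284). Socs3, a feedback inhibitor of cytokine receptors, had 798 and 746 against 887 and 819 (0.20, adjusted p = 0.0126). Irf2, which competes with IRF1 for its sites, fell from 220 and 223 to 150 and 148 reads (-0.52, adjusted p = 0.00068). Neither Jak1, Jak2, Stat2, Stat3, Irf9 nor Nlrc5 passed the test, and Cmtm6, which keeps PD-L1 on the cell surface, had 419 and 470 against 509 and 423 reads. Without KL replicate 2, Ifngr1 stood at 0.20 and Socs3 at 0.16 (adjusted p = 0.150 and 0.185), and Irf1 did not pass without KL replicate 1 or 2 (adjusted p = 0.101 and 0.143). None of the 3 that rose passed on start-site peaks only (Ifngr1 0.20, Irf1 0.26, Socs3 0.12; adjusted p = 0.105, 0.0621 and 0.475) or on the highest peak only (0.18, 0.24 and 0.11; adjusted p = 0.170, 0.0938 and 0.550), where Irf2 stood at -0.90. DESeq2 called 122 genes higher and 337 lower where edgeR called 1122 and 2010. Of the named receptors, other ligands and regulators it called Vsir (adjusted p = 0.0088), gave Vtcn1 no adjusted p, and did not call the rest.

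Listed markers of other cell types had reads in every library despite the CD45-CD31-EpCAM+ sort, and some moved with the genotype. Some had few reads, such as Pdgfrb with 9 and 10 in KL, and no background level was set against them. Counts of markers that passed stand beside 5.38% of all genes that rose and 9.63% that fell. In such bulk samples fewer cells of a type and less mark per cell cannot be told apart. Of 14 listed myeloid markers, 3 rose (Itgam, Adgre1, Spi1) and 3 fell (Lyz2, Ciita, Cd74), and their summed level was 569 and 599 CPM in KL and 645 and 628 CPM in KLG4m/m; Marco and Tyrobp had no listed peak. Of 8 T cell markers 2 rose (Cd3d, Zap70), with sums of 287 and 267 against 321 and 332 CPM. Of 6 listed B cell markers 3 rose (Ms4a1 and Pax5 among them), with sums of 138 and 125 against 167 and 170 CPM. Much of these sums came from Ebf1, which did not pass (84.5 and 70.2 CPM in KL, 86.6 and 91.0 CPM in KLG4m/m). Cd22 was lower without passing the test, with 18 and 24 reads in KL against 15 and 8 in KLG4m/m (log2 fold change -0.81). Cd79a had no listed peak. Pdcd1lg2, Tnfsf4 and Vsir, which rose, are also expressed by such immune cells, and the part of those cells in these results was not tested. No listed marker was at 0 in any library.

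Epithelial markers were mixed, and 4 alveolar type 2 markers fell. Of 7 epithelial markers 2 fell, Epcam from 182 and 200 to 115 and 94 reads and Cdh1 from 290 and 305 to 216 and 225. The other 5 did not pass, with log2 fold changes of 0.27 for Esrp1, 0.11 for Krt19, 0.075 for Krt18, -0.0043 for Cldn4 and -0.28 for Krt8. The median of the list was -0.0043, and its summed level was 345 and 342 CPM in KL and 302 and 307 CPM in KLG4m/m. Of 7 listed alveolar type 2 markers 4 fell (Lamp3, Sftpa1, Sftpb, Sftpd), with sums of 267 and 276 against 203 and 214 CPM, and Sftpc had no listed peak. Of 6 endothelial markers 1 fell (Tek), with sums of 164 and 199 against 154 and 176 CPM, and of 3 listed fibroblast markers 1 rose (Pdgfrb), with sums of 64.6 and 71.7 against 69.5 and 72.8 CPM. Nectin2 and Cd276, epithelial among other tissues, were lower in the libraries in which Epcam and Cdh1 were lower. Krt8 was also lower there, without passing the test. Krt18, Krt19 and Cldn4 overlapped between the groups, and Esrp1 was higher. The part of the epithelial share in the values of Nectin2 and Cd276 was not tested. Of the marker calls, those of Itgam, Spi1, Lyz2, Epcam, Lamp3, Sftpa1, Sftpb and Sftpd held both without KL replicate 1 and without KL replicate 2, and each of the others was lost without at least 1 of these libraries. On start-site peaks only or the highest peak only, Sftpb stood at -0.35 and -0.36 and Tek at -0.28 and -0.30, and neither passed; Adgre1 and Cdh1 did not pass on either, nor Ciita, Cd3d, Zap70, Ms4a1 and Pax5 on the highest peak only. Cd74 did not pass with total reads, RLE factors or limma, nor Zap70 with upper-quartile factors or limma at pseudocounts of 1 and 0.25. No marker call passed without KLG4m/m replicate 3 or without KLG4m/m replicate 4, and DESeq2 called Itgam, Spi1, Epcam and Sftpa1 among them.

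**Figure D5:**
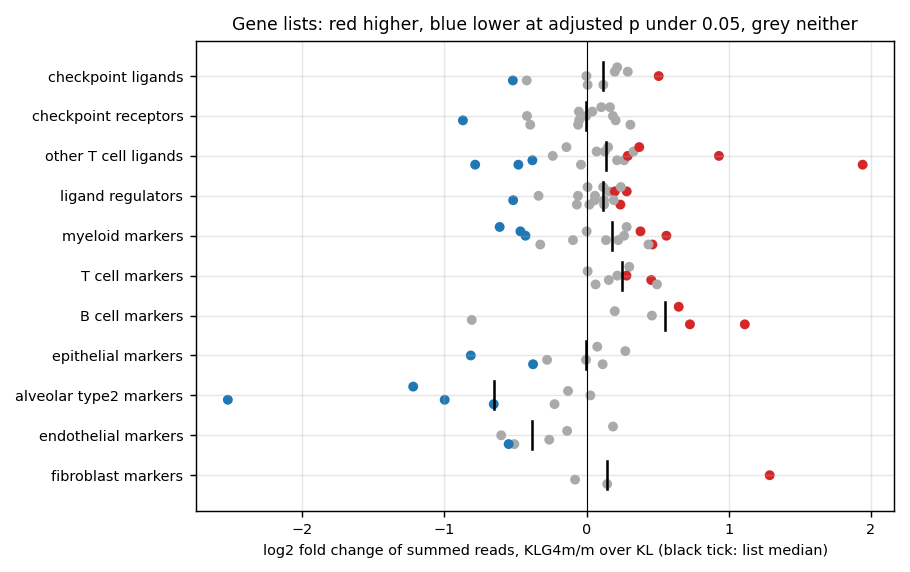
Log2 fold change of summed reads, KLG4m/m over KL, for each gene of the lists (points; red higher, blue lower at an adjusted p under 0.05) with the list median as a black tick. The ligand median is 0.12, the receptor median -0.0026 and the alveolar type 2 median -0.65.

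Genes whose levels over the 4 libraries were most like those of Nectin2 and Pdcd1lg2 were found by Euclidean distance of log2(CPM + 1). For Nectin2 (summed level 32.3, 29.1, 19.5 and 23.4 CPM) these were Smim43 (distance 0.0685), Ciita, the activator of MHC class II genes (0.0836), and Sh3rf3 (0.135). For Pdcd1lg2 they were Slco5a1 (0.140), Gm34844 (0.140) and Gm32620 (0.150). With 4 libraries of 2 genotypes, these distances describe a shared level and a shared step and no more.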

How the data were processed

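H3K4me3 CUT&Tag libraries of 2 KL and 2 KLG4m/m samples were used; the 4 H3K27ac samples were not analysed here, and the labels name no batch. An allele that both groups carry and some genes of the lists are not reported here by name. According to the methods and the processing notes, the authors trimmed reads (Trim Galore 0.6.10), mapped them (BWA 0.7.15), dropped duplicates (Picard 2.17.3), poorly mapped reads and those of mitochondrial DNA, called peaks (MACS2 2.2.7.1) and assigned peaks to genes (HOMER 4.11.1). Whether peaks were called per library or on pooled reads is not given in the sources used here. They deposited 1 table of 35486 peaks with whole read counts per library, which were used, and CPM values, scaled by the authors to each library's total over the listed peaks; these equalled count over total. The deposited distance to the start site, a score in bp, was used as given. The table also holds the authors' own fold changes and p-values, which were not used. Positions are those of the table, whose build is not GRCm38; RefSeq promoter windows are GRCm38.p6.

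Counts without a filter were fitted over all peaks, and summed per gene name over all 20871 genes, by edgeR's quasi-likelihood test with TMM (edgeR 4.0.16, R 4.3.3), two-sided, threshold adjusted p under 0.05. Differences between peaks of a gene used diffSpliceDGE. With 2 libraries a group, an exact permutation test could not go below p = 0.333. The libraries of a group differed by more than sampling noise (chi-square per degree of freedom 1.13 in KL and 1.23 in KLG4m/m), so that none was a copy of another. This does not tell whether each library came from its own mouse. On simulated data with 200 features changed 2-fold, 89% of the changes were recovered among 35486 peaks and 96.5% among 20871 genes. Within genes, 63.5% were recovered over 22232 peaks. The changed features all had a mean of at least 10 CPM, and those within genes did not hold most of the reads of their gene. All features shared a common dispersion. These rates therefore do not cover weaker peaks such as those of Pdcd1lg2. The precision rests on the reads per peak, 8 to 361 at the members; intervals are 95% and cover these libraries only. Scaling to reads in peaks hides a change shared by all peaks. Alternatives were DESeq2 1.42.0, limma 3.58.1 on log2(CPM + 1), + 0.25 or + 4, other scalings, a minimum mean of 10 CPM, start-site or highest peaks only, peaks by position (for differences within a gene, added to those under its name), and leaving out each library.

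The 9 members were given by name, and members, lists and tests were chosen with earlier results of these data known. Named beside them are genes of the related lists past the threshold (at most 8 per list), peaks within 100 kb past the threshold, and the 3 genes nearest in level to each member past the threshold on its summed reads.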

Additional observations from a re-analysis of the deposited data

How the results depend on the processing

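Peaks with few reads and calls near the threshold limit these results. The start-site peaks of Cd274, Cd47 and Lgals9 had over 200 reads per library, whereas the Pdcd1lg2 peak that passed had 18 to 42. With 1 KLG4m/m library left out the spread comes from the KL pair alone, the lone sample being assumed to vary like KL, and no peak or gene of the table passed (2251 peaks higher and 3235 lower at an unadjusted p under 0.05 without replicate 3, 2228 and 2950 without replicate 4), so a call lost there says nothing of the member. No paired analysis was possible because the genotypes share no replicate number.

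Among the members, the rise of the fourth Pdcd1lg2 peak held under each of the 6 alternatives that gave it a value (log2 fold change 0.75 to 1.21, adjusted p 0.0037 to 0.0137); DESeq2 gave it no adjusted p, and a minimum mean of 10 CPM removed it. Member peaks called were 0 higher and 0 lower with DESeq2, 2 and 0 with upper-quartile factors, where the Cd47 peak upstream of the gene passed (adjusted p = 0.0475), and 0 and 2 with a minimum mean of 10 CPM, against 1 and 1. Member genes called were 0 and 0 with DESeq2 and 0 higher with the highest peak only. With upper-quartile factors or the minimum mean 2 were lower, where Cd276 joined Nectin2. On start-site peaks only, 0 of the 6 members that had such a peak were called. Pdcd1lg2 and Nectin2 had none under their own name, so that setting could not test their calls. With 1 library left out, member peaks and genes called ran from 0 to 1 higher and were 0 lower. Over all peaks, DESeq2 called 33 higher and 250 lower, upper-quartile factors 2122 higher, and leaving out 1 library 0 to 702 higher and 0 to 1459 lower. Over all genes, DESeq2 called 122 and 337, start-site peaks alone 747 higher, the highest peak alone 725 higher, and leaving out 1 library 0 to 649 higher and 0 to 1305 lower. Why the tools differ was not tested.

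Of results that had not passed, values near 0 changed sign. Cd47 peak 3 went to -0.0035 with total reads, -0.014 with the minimum mean, and -0.0030, -0.0031 and -0.0029 with limma at pseudocounts of 1, 0.25 and 4. With upper-quartile factors Cd274 peak 1 went to 0.048, Pdcd1lg2 peak 1 to 0.022 and the Cd274 sum to -0.0069. The Cd47 sum went to 0.0031 with DESeq2 and 0.0025 with RLE factors, and the Cd274 sum to -0.024 with start-site peaks and -0.018 with the highest peak. By position the Pvr sum turned to -0.45 (adjusted p = 0.0031, edgeR), for the start-site peak replaced the far upstream peaks. With peaks under other names added to its own, Pvr peak 1 stood 0.060 above the gene as a whole. Leaving out 1 library gave signs of both kinds for Cd274 peak 1 -0.090 to 0.067, Cd274 peak 4 -0.012 to 0.18, Cd80 peak 2 -0.24 to 0.47, Gm8590 at Cd80 from 38296644 -0.15 to 0.0098, Cd47 peak 3 -0.0082 to 0.019, Cd47 peak 5 -0.44 to 0.22, Lgals9 peak 2 -0.60 to 0.096, Gm38955 at Nectin2 from 19449551 -0.039 to 0.20, Gm38955 at Nectin2 from 19456718 -0.98 to 0.32, Gm36043 at Cd274 from 29362313 -0.47 to 0.76, Pdcd1lg2 peak 1 -0.33 to 0.33, Gm16184 at Pvr from 19644889 -0.57 to 0.25, Ck-ps3 at Cd80 from 38303646 -0.045 to 0.22, Gm5486 at Cd47 from 49725915 -0.80 to 0.013, the Cd47 sum -0.067 to 0.082, the Cd274 sum -0.012 to 0.025. Set against their gene as a whole, Cd274 peak 1 ran from -0.10 to 0.065 and Cd274 peak 4 from -0.013 to 0.16. Cd47 peak 5 ran from -0.39 to 0.17 and Cd47 peak 3 from -0.059 to 0.062. Cd80 peak 1 ran from -0.024 to 0.20 and Cd80 peak 2 from -0.24 to 0.042. Pdcd1lg2 peak 2 ran from -0.019 to 0.12 and Pdcd1lg2 peak 3 from -0.19 to 0.069. No other sign changed in the results on members or on the named genes of other lists.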
